A study of Homo sapiens with 9 samples.

Results

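Collagen chains, the hydroxylases, oxidases and chaperone that modify and fold them, and glycoproteins of the extracellular matrix were measured in OEC-M1, an HNSCC cell line. The 39 genes were taken from a list of symbols, with no threshold on a measured value. The list was chosen with earlier results of these data known. All 39 were found among 47753 gene names on the arrays, of which 22439 were symbols. Shares of all genes below therefore include names without a symbol, which are not like the members. They comprised 15 collagen chains, 13 enzymes and chaperones, and 11 other matrix proteins. All groups shared 18 h at 1% O2 before harvest and, by their labels, a transfection of 72 h. There were 3 arrays of cells given non-targeting siRNA (si-Control), 3 of GATA3 knockdown and 3 of HIF-1α knockdown, and cDNA from 10 µg of total RNA was hybridised on Agilent expression arrays with 1 dye. The supplementary legend for the arrays names 1 siRNA for each target. On these arrays an effect of the siRNA and an effect of its target cannot be told apart. The paper's real-time RT-PCR of selected array genes, none of them a member, used more than 1 siRNA per target. The numbers in the sample titles were read as replicate numbers, though the paper also numbers its siRNAs. There were no cells kept at normal oxygen among these arrays, so the comparisons were made within hypoxia. The sources do not say whether arrays of a group came from separate cultures, so the P values measure the spread between these arrays, which may be technical.

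Fibrillar and network collagens are built from chains that are hydroxylated on proline and lysine residues in the endoplasmic reticulum before they fold into a triple helix. The hydroxylases use molecular oxygen, and lysyl oxidases later cross-link the secreted collagen outside the cell. HIF-1 is the transcription factor that accumulates when oxygen is low, and genes of collagen hydroxylases and of lysyl oxidase are among its known targets.

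Median spot intensity, a measure of the brightness of an array, was between 992.5 on si-Control replicate 3 and 3560 on HIF-1α knockdown replicate 1, and no probe was saturated. The share of probes well above background ran from 73.3% to 88.0%. The targeted genes followed the labels. GATA3 changed by -1.26 ± 0.34 (log2 fold change, SE, n = 3) in GATA3 knockdown, and none of its knockdown arrays reached the si-Control range. HIF1A fell from 16.79, 16.30 and 17.22 (log2 intensity) in si-Control to 14.59, 14.22 and 14.68 in HIF-1α knockdown. The markers of epithelial cells KRT8, KRT18, KRT14, CDH1 and EPCAM were well above background on all 9 arrays, whereas KRT5 was not on any array. Of the 10 fibroblast markers, 8 were well above background on all 9 arrays, including VIM, and PDGFRA was above it on none. Also above it on all 9 arrays were 3 of 5 endothelial markers and 2 of the 3 leukocyte markers measured, so these counts do not tell cell types apart. The probe used for each gene was the brightest, and probes of one gene could differ widely. Those of PTPRC, a leukocyte marker, averaged between 7.13 and 16.40. Those of PDGFRB, among the 8 fibroblast markers, averaged 16.33 and 7.27, and the dimmer was well above background on no array.

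Of the 39 members, 30 were well above background on all 9 arrays. COL3A1, a fibrillar collagen chain, and LUM, the proteoglycan lumican, were not well above background on any array, and LOXL4 was above it on 2 arrays. Spots marked as non-uniform left 6 members without a value on at least 1 array. COL1A1 was the most affected, with values on 5 arrays. A gene was called when the unadjusted P of limma, a linear model fitted over all genes, was 0.05 or less.

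LOX and the prolyl 4-hydroxylase subunits P4HA1 and P4HA2 were lower in HIF-1α knockdown, together with 1 collagen chain and fibronectin. Among the 39 members 5 were called, all of them lower, and they were LOX, P4HA2, P4HA1, COL12A1 and FN1. This was 12.8% of the members, beside 3.28% of all genes tested that were called lower and 1.98% called higher. With arrays scaled to the 75th percentile these shares of all genes were 2.38% and 2.86%, and the same 5 members and PLOD1 were called. Median log2 fold change was -0.17 over the members and -0.01 over all genes. None of the members passed a Benjamini-Hochberg adjusted P of 0.05 in limma, and the lowest adjusted P was 0.583. The called members were 3 of the 13 enzymes and chaperones, 1 of the 15 collagen chains and 1 of the 11 other matrix proteins. Of the 13 enzymes and chaperones, 12 had a negative fold change. Array brightness moved with these values. The dimmest array, si-Control replicate 3, had the highest si-Control value of LOX, P4HA1, P4HA2 and COL12A1, and the brightest, HIF-1α knockdown replicate 1, had the lowest value of all 5 genes. With array brightness as a covariate the 5 stayed called and LOXL1 was added, beside 3.38% of all genes called lower and 4.35% higher. In that fit LOX was smaller, at -1.73, as was COL12A1, at -0.89, while FN1 was at -0.90. In bulk RNA, fewer cells making a transcript and less transcript per cell cannot be told apart.

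**Figure D1:**
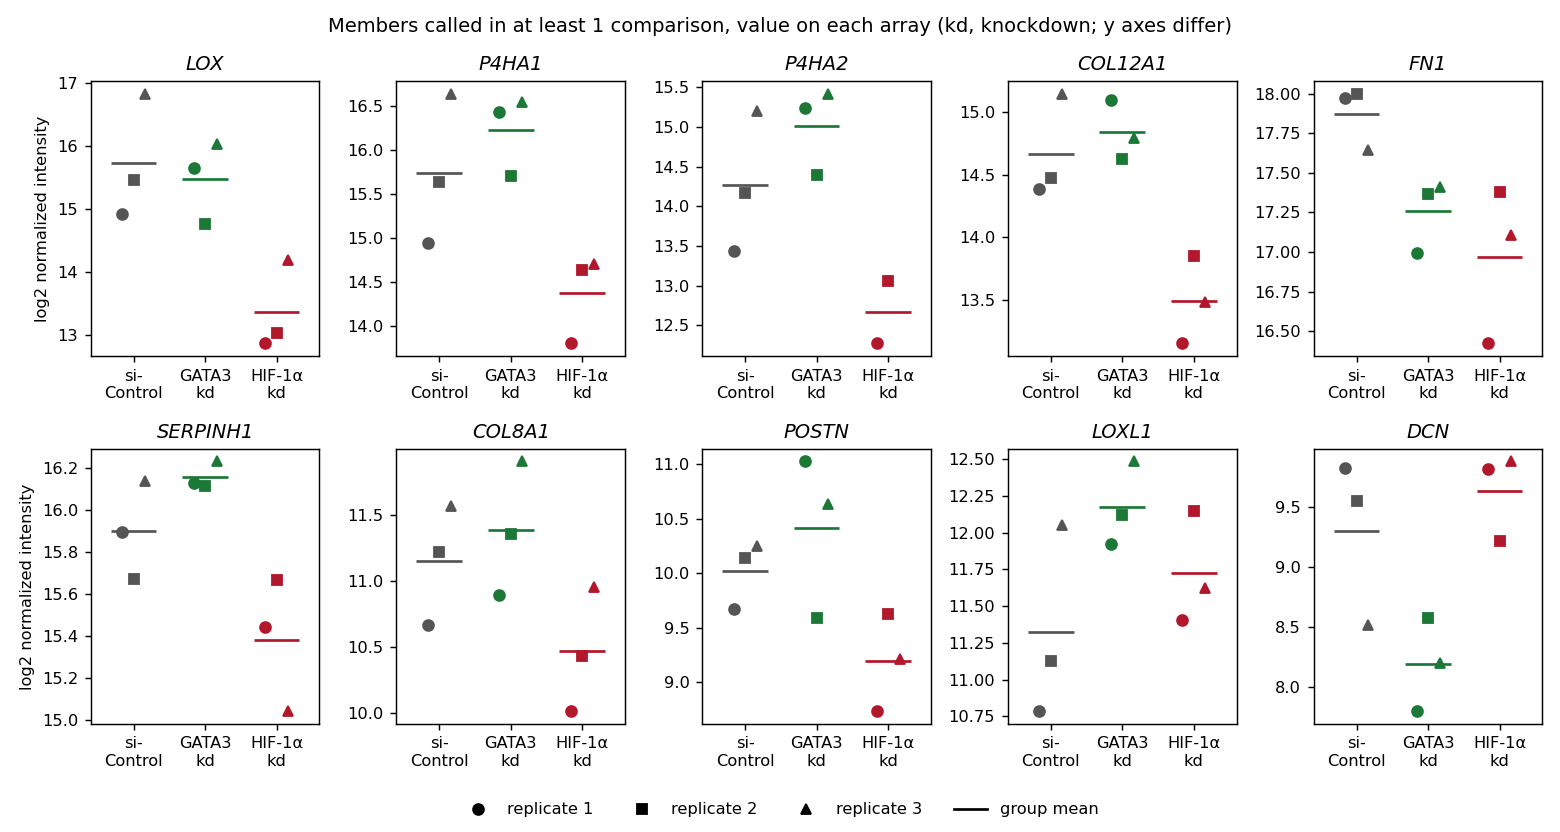
Log2 normalized intensity (y axis, a separate scale for each gene) on each of the 9 arrays for the 10 members called in at least 1 comparison. Symbols mark the replicate number and horizontal lines the group means. LOX, P4HA1, P4HA2, COL12A1 and FN1 are lower on every measured HIF-1α knockdown array than on any si-Control array. So are SERPINH1 and POSTN, which were not called in that comparison.

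LOX, the lysyl oxidase that cross-links collagen and elastin, had the largest change among the members in HIF-1α knockdown. Its log2 intensity was 14.92, 15.47 and 16.84 on the si-Control arrays, 15.65, 14.77 and 16.03 on the GATA3 knockdown arrays, and 12.87, 13.04 and 14.19 on the HIF-1α knockdown arrays. Every HIF-1α knockdown array was below every other array, while si-Control and GATA3 knockdown overlapped. The log2 fold change against si-Control was -2.38 ± 0.54 (SE, n = 3 arrays per group), which is 5.19-fold lower (limma adjusted P = 0.583). Within the slides it was -2.05, -2.43 and -2.65. It was called in each of the 19 alternatives tried, between -2.79 and -1.73.

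P4HA1 and P4HA2 encode catalytic subunits of collagen prolyl 4-hydroxylase, the enzyme whose product lets the triple helix hold at body temperature. P4HA1 was at 14.95, 15.64 and 16.64 in si-Control, at 16.44, 15.71 and 16.55 in GATA3 knockdown, and at 13.81, 14.64 and 14.71 in HIF-1α knockdown. P4HA2 was at 13.44, 14.17 and 15.21 in si-Control, at 15.24, 14.39 and 15.42 in GATA3 knockdown, and at 12.27 and 13.06 on the 2 HIF-1α knockdown arrays that gave a value. For both genes the HIF-1α knockdown arrays lay below all others, and the other groups overlapped. P4HA1 was lower by a log2 fold change of -1.36 ± 0.45 (SE, n = 3), or 2.56-fold, and P4HA2 by -1.60 ± 0.53 (SE, n = 3 and 2), or 3.04-fold (limma adjusted P = 0.823 for each). A second P4HA2 probe, measured on all arrays, gave -1.65. Without HIF-1α knockdown replicate 1, the brightest array, neither was called, at -1.07 and -1.21. With array brightness as a covariate they stayed called and were smaller, at -0.78 and -0.95. P4HA3, another catalytic subunit, and P4HB, the protein disulphide isomerase that is the other subunit of the enzyme, were not called, at -0.38 and -0.04.

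COL12A1, a chain of a collagen that binds to the surface of fibrils, was at 14.39, 14.47 and 15.15 in si-Control, at 15.10, 14.63 and 14.79 in GATA3 knockdown, and at 13.15, 13.85 and 13.48 in HIF-1α knockdown. The HIF-1α knockdown arrays lay below all others. Its log2 fold change against si-Control was -1.18 ± 0.29 (SE, n = 3; limma adjusted P = 0.663), it was called in each of the 19 alternatives, and a second probe gave -1.30. FN1, the adhesive glycoprotein fibronectin, was at 17.97, 18.00 and 17.64 in si-Control, at 16.99, 17.37 and 17.41 in GATA3 knockdown, and at 16.42, 17.38 and 17.10 in HIF-1α knockdown. Both knockdowns lay below all 3 si-Control arrays and overlapped each other. The log2 fold change of FN1 was -0.90 ± 0.29 (SE, n = 3) in HIF-1α knockdown (limma adjusted P = 0.823), and -0.63 without HIF-1α knockdown replicate 1, where it was no longer called. In GATA3 knockdown it was -0.62 ± 0.29 and was not called.

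**Figure D2:**
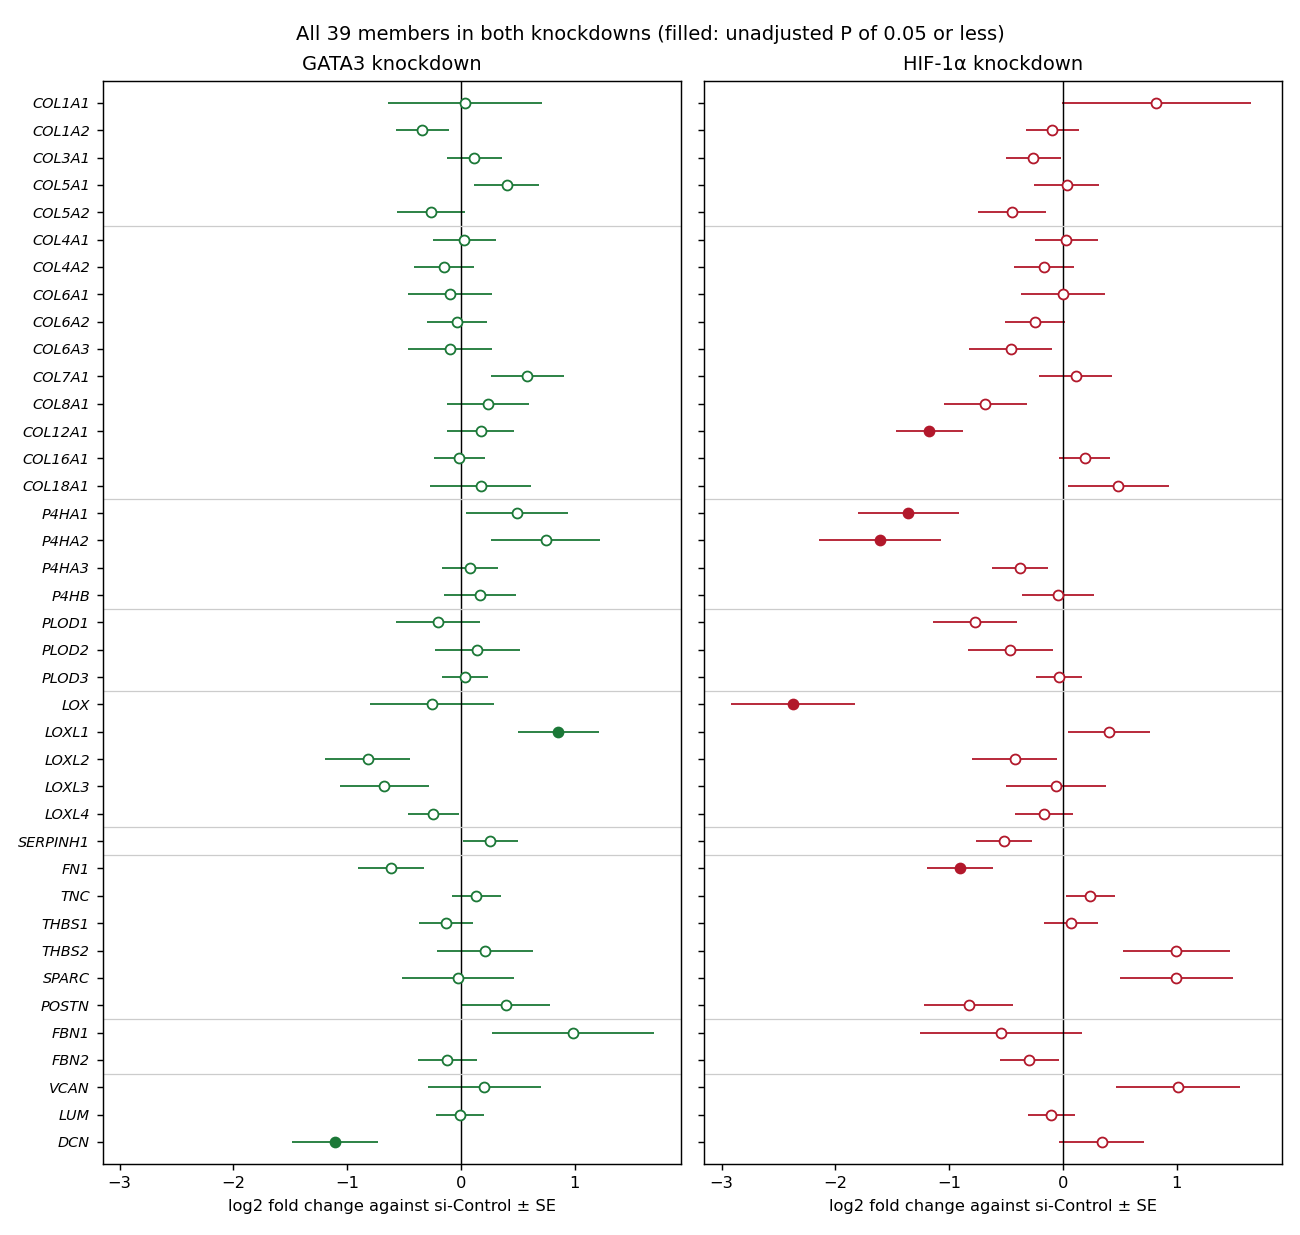
Log2 fold change against si-Control (x axis, ± SE) of the 39 members in GATA3 knockdown (left) and HIF-1α knockdown (right), in order of gene class with grey lines between classes. Filled points were called at an unadjusted P of 0.05 or less, which holds for 2 members on the left and 5 on the right.

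The sequences just upstream of the start of the 5 called genes are shown because they moved together in HIF-1α knockdown. They are RefSeq sequences of GRCh38.p14, 250 bases long, read 5′ to 3′ on the strand of the gene and ending at the base before the start, and for a gene with several starts in the table the one farthest upstream was used. Capitals mark the core of the HIF binding motif, ACGTG or GCGTG, on either strand, so that a match on the opposite strand reads CACGT or CACGC.
LOX (chr5:122078260-122078509, minus strand): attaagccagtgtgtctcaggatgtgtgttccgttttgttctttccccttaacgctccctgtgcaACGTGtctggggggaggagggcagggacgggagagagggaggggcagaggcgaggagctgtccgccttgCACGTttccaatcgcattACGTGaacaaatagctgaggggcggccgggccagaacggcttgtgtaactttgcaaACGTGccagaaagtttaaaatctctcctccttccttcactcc
P4HA1 (chr10:73096867-73097116, minus strand): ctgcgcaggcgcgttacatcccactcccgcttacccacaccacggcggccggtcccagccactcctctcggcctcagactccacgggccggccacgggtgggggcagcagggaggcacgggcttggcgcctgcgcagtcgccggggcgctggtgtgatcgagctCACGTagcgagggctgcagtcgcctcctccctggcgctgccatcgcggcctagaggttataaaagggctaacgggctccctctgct
COL12A1 (chr6:75206054-75206303, minus strand): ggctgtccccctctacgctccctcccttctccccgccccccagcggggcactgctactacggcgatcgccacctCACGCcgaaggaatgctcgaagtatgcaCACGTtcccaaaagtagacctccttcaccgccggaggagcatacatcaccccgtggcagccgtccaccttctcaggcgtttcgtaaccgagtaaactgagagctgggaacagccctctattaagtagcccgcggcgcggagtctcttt
P4HA2 (chr5:132227092-132227341, minus strand): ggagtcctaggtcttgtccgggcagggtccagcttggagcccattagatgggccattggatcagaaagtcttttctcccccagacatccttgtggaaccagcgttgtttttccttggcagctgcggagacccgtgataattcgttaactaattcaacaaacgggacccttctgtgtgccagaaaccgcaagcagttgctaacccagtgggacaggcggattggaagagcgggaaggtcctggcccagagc
FN1 (chr2:215436069-215436318, minus strand): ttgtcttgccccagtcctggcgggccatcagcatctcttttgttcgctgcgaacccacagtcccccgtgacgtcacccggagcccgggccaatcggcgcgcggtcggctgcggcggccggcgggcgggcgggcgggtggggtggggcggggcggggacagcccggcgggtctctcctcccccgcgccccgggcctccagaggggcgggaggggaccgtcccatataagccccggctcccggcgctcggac
LOX held 4 matches, at 185, 116, 98 and 42 bases before the start, all of them ACGTG. P4HA1 held 1 and COL12A1 held 2, whereas P4HA2 and FN1 held none in this window. Of the 39 members 29 had an entry, and 12 of these 29, or 41.4%, held a match, beside 43.1% of 27305 promoter windows of the same length. For ACGTG alone the shares were 24.1% and 18.6%. The GATA motif, searched on both strands as AGATAA and as AGATAG, and likewise with T in place of the first A, was in 2 of the 29 windows, those of P4HA2 and SPARC, beside 23.0% of all windows. A match is a run of letters and not a bound site.

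**Figure D3:**
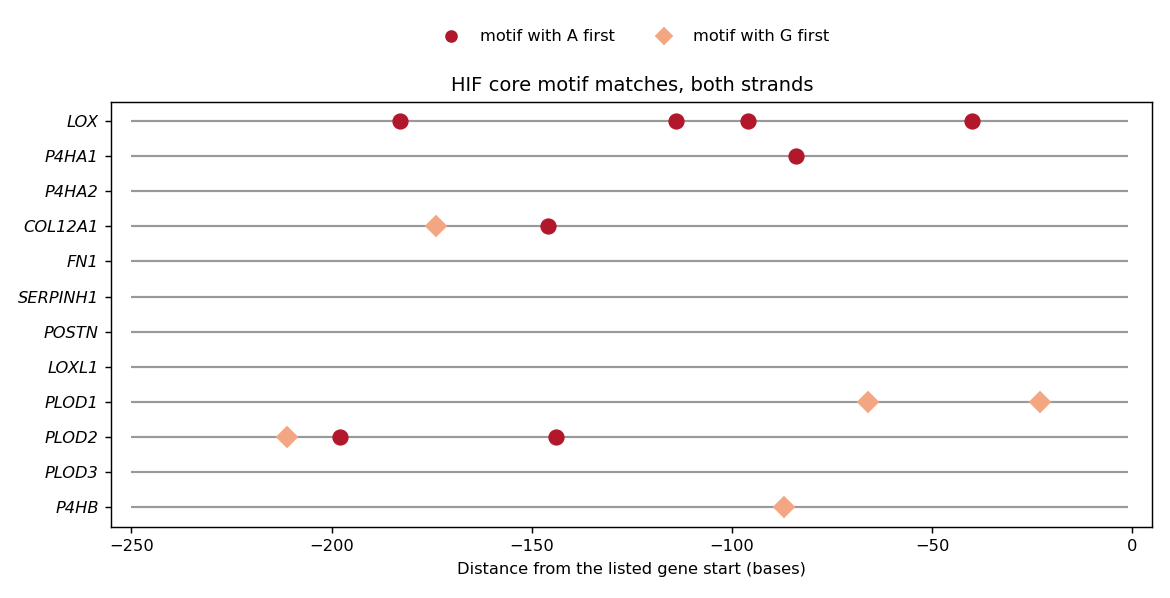
Position of matches to the HIF core motif (x axis, bases from the listed gene start) on both strands in 12 members. Circles mark the form that starts with A and diamonds the form that starts with G; LOX has 4 circles, while P4HA2, FN1 and LOXL1 have no match.

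PLOD1 and PLOD2, lysyl hydroxylases that prepare collagen for cross-linking, were not called. PLOD1 was at 15.40, 15.89 and 16.71 in si-Control, at 15.71, 15.44 and 16.25 in GATA3 knockdown, and at 14.88, 15.19 and 15.61 in HIF-1α knockdown. The HIF-1α knockdown arrays reached into the range of si-Control, and the log2 fold change was -0.77 ± 0.37 (SE, n = 3), with -0.75 from a second probe. PLOD2 was at 14.85, 15.07 and 16.26 in si-Control, at 15.74, 15.15 and 15.72 in GATA3 knockdown, and at 14.63, 15.14 and 15.02 in HIF-1α knockdown, a log2 fold change of -0.46 ± 0.37. PLOD3 was at -0.03. With the replicate number as a block, which is also the slide, 8 members were called in HIF-1α knockdown instead of 5, while of all genes 5.29% were called lower and 3.12% higher. The added members were COL8A1, PLOD1 and THBS2. The fold change of THBS2, a matricellular protein, was positive, at 1.21 ± 0.42 with the block and 1.00 without it. THBS2 had no value on HIF-1α knockdown replicate 1.

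LOXL2, a lysyl oxidase of the same family as LOX, was at 14.73, 14.94 and 16.01 in si-Control, at 14.36, 14.04 and 14.82 in GATA3 knockdown, and at 14.39, 15.01 and 15.00 in HIF-1α knockdown. The groups overlapped, and the log2 fold change was -0.82 ± 0.37 with GATA3 knocked down and -0.43 ± 0.37 with HIF-1α knocked down (SE, n = 3), neither of them called. In GATA3 knockdown it was below 0 on every slide, at -0.37, -0.90 and -1.19, and it was called with the slide as a block, at -0.82 ± 0.28 (limma adjusted P = 0.958).

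Other collagen chains were called in neither knockdown against si-Control. COL4A1, a main chain of basement membrane collagen, was at 17.84, 17.73 and 17.05 in si-Control, at 17.62, 17.77 and 17.32 in GATA3 knockdown, and at 17.32, 17.61 and 17.78 in HIF-1α knockdown, a log2 fold change of 0.03 ± 0.28 in each. COL1A2, a chain of type I collagen, was dim, at 9.05, 8.70 and 8.66 in si-Control, 8.73, 8.37 and 8.30 in GATA3 knockdown, and 8.90, 8.67 and 8.57 in HIF-1α knockdown. COL1A1, the other chain of type I collagen, was at 14.99 and 13.00 on the si-Control arrays that gave a value, at 14.30 and 13.76 on the GATA3 knockdown arrays, and at 14.82 on 1 HIF-1α knockdown array. The spread between its si-Control arrays exceeded the differences between groups. Over the 15 collagen chains the log2 fold changes spanned -0.34 to 0.58 when GATA3 was knocked down and -1.18 to 0.82 when HIF-1α was.

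SPARC, a glycoprotein that binds collagen, was at 8.15, 9.09 and 7.59 in si-Control, at 8.26, 8.75 and 7.74 in GATA3 knockdown, and at 8.66, 8.93 and 10.22 in HIF-1α knockdown. Only 6 of 9 arrays had it well above background, and its HIF-1α knockdown value of 1.00 ± 0.49 (SE, n = 3) rested on replicate 3, where the difference within the slide was 2.64. TNC, the matricellular protein tenascin C, varied little, at 15.24, 15.64 and 15.41 in si-Control, 15.60, 15.64 and 15.44 in GATA3 knockdown, and 15.70, 15.66 and 15.64 in HIF-1α knockdown. FBN1, the microfibril protein fibrillin 1, had a GATA3 knockdown value of 0.99 ± 0.71, with a difference of 2.98 on the slide of replicate 3 and of 0.41 and -0.44 on the other slides.

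The members not called in any comparison numbered 29. Among those not yet given, LOXL3, a further lysyl oxidase, was at -0.68 ± 0.39 when GATA3 was knocked down and at -0.06 ± 0.44 when HIF-1α was (log2 fold change, SE), with no value on HIF-1α knockdown replicate 3. The next pairs of values are in the same order. COL7A1, the chain of anchoring fibrils, was at 0.58 ± 0.32 and 0.11 ± 0.32. VCAN, the proteoglycan versican, had no value on 2 arrays and was at 0.20 ± 0.50 and 1.01 ± 0.54. COL5A1, a fibrillar chain, was at 0.37 in the direct comparison of the knockdowns, while its dimmer probe was at 1.02 and passed the threshold. THBS1, the glycoprotein thrombospondin 1, was at -0.13 and 0.07, FBN2, another fibrillin, at -0.12 and -0.29, and COL18A1, whose fragment is endostatin, was at 0.17 and 0.49.

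In GATA3 knockdown 2 of the 39 members were called, LOXL1 higher and DCN lower. Of all genes tested 1.57% were called higher and 1.37% lower, and 1 member in each direction is 2.56% of the list. With arrays scaled to the 75th percentile the shares of all genes were 5% and 1.46%, and DCN and LOXL2 were the members called, both lower. Median log2 fold change was 0.03 over the members and -0.02 over all genes. No member passed an adjusted P of 0.05, and the lowest adjusted P over the members in limma was 1.00.

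LOXL1, a lysyl oxidase needed for elastic fibres, was at 10.78, 11.13 and 12.06 in si-Control, at 11.93, 12.12 and 12.49 in GATA3 knockdown, and at 11.41, 12.15 and 11.63 in HIF-1α knockdown. The highest si-Control array exceeded the lowest GATA3 knockdown array. The log2 fold change was 0.86 ± 0.36 (SE, n = 3), or 1.81-fold higher (limma adjusted P = 1.00), and it was above 0 on every slide, at 1.14, 0.99 and 0.43. It was called in 11 of the 19 alternatives, and the call was lost when si-Control replicate 1 or 2, GATA3 knockdown replicate 2 or 3, or HIF-1α knockdown replicate 3 was left out.

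DCN, the proteoglycan decorin that coats collagen fibrils, was at 9.83, 9.55 and 8.52 in si-Control, at 7.80, 8.57 and 8.20 in GATA3 knockdown, and at 9.82, 9.21 and 9.88 in HIF-1α knockdown. Only 1 of the 3 GATA3 knockdown arrays had it well above background, and si-Control replicate 3 lay within the GATA3 knockdown range. The log2 fold change was -1.11 ± 0.38 (SE, n = 3; limma adjusted P = 1.00), and on the slides it was -2.03, -0.97 and -0.32. A second DCN probe, above background on 2 arrays, gave -0.30, and the mean of both probes gave -0.70 and no call. The call was also lost without si-Control replicate 1 or 2 and without GATA3 knockdown replicate 1. LOXL1 and DCN were not called after HIF-1α knockdown, at 0.40 and 0.34.

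With array brightness as a covariate 8 members were called in GATA3 knockdown, beside 4.78% of all genes called higher and 4.06% lower. With the replicate block 5 were called, beside 2.90% and 2.07% of all genes. The added members included FN1, LOXL2 and COL7A1 in both of these fits. The covariate also added LOXL3, P4HA1 and P4HA2, which were called without si-Control replicate 3, the dimmest array, as well. With no covariate P4HA1 and P4HA2 were at 0.49 ± 0.45 and 0.74 ± 0.48 in GATA3 knockdown and were not called.

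**Figure D4:**
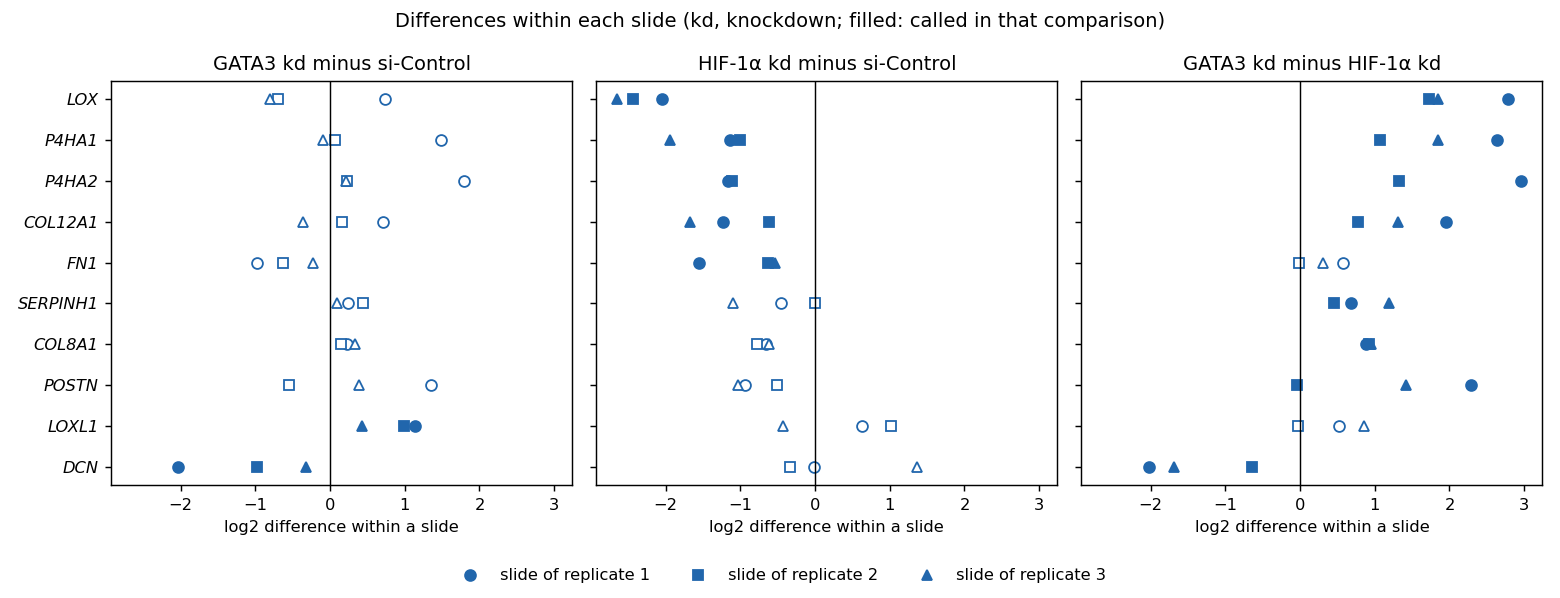
Log2 differences within each slide (x axis) for the 10 members called in at least 1 comparison, with 1 symbol per slide and 1 panel per comparison. Filled symbols mark members called in that comparison; LOX is below 0 on all 3 slides in HIF-1α knockdown and on 2 of 3 in GATA3 knockdown.

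The direct comparison of both knockdowns gave 8 called members. It uses the same HIF-1α knockdown arrays as the comparison with si-Control. Called higher in GATA3 knockdown were 7 of the 39 members, beside 6.92% of all genes, and called lower was DCN alone, beside 5.07%. The 7 were P4HA2, LOX, P4HA1, COL12A1, POSTN, COL8A1 and SERPINH1. Median log2 difference was 0.19 over the members and 0.00 over all genes. The lowest adjusted P over the members was 0.212 in limma, for COL12A1.

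On the log2 scale GATA3 knockdown exceeded HIF-1α knockdown by 2.35 ± 0.53 for P4HA2, with LOX at 2.12 ± 0.54, P4HA1 at 1.85 ± 0.45 and COL12A1 at 1.35 ± 0.29 (SE). These 4 were called in each of the 19 alternatives. They had no overlap between both groups, which also held for members that were not called, such as PLOD3 and COL7A1. The share of all genes without overlap was not counted. With array brightness as a covariate LOX was at 1.37 and P4HA1 at 1.18.

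SERPINH1, the chaperone that binds procollagen in the endoplasmic reticulum, was at 15.89, 15.67 and 16.14 in si-Control, at 16.13, 16.12 and 16.23 in GATA3 knockdown, and at 15.44, 15.67 and 15.04 in HIF-1α knockdown. The knockdown groups did not overlap, and the log2 difference was 0.77 ± 0.24 (SE, n = 3; limma adjusted P = 0.353). It was called in neither comparison with si-Control, where the values were 0.26 for GATA3 and -0.52 for HIF-1α.

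COL8A1, a short-chain collagen of blood vessel walls, was at 10.66, 11.21 and 11.56 in si-Control, at 10.89, 11.35 and 11.90 in GATA3 knockdown, and at 10.01, 10.43 and 10.95 in HIF-1α knockdown. The groups overlapped, and its difference of 0.92 ± 0.36 (limma adjusted P = 0.395) was 0.88, 0.92 and 0.95 within the slides. It was not called without GATA3 knockdown replicate 2 or 3 or HIF-1α knockdown replicate 1 or 2, nor with array brightness as a covariate, where it was 0.59. POSTN, the matricellular protein periostin, was at 9.67, 10.14 and 10.25 in si-Control, at 11.02, 9.59 and 10.64 in GATA3 knockdown, and at 8.73, 9.63 and 9.22 in HIF-1α knockdown. Its difference was 1.22 ± 0.39, with 2.29, -0.04 and 1.42 on the slides (limma adjusted P = 0.355). DCN was lower in GATA3 knockdown by -1.45 ± 0.38, without overlap. This moved to -2.30 when arrays were scaled to the 75th percentile of processed signal and to -0.96 with array brightness as a covariate. The second DCN probe, above background on 2 arrays, gave -1.04 and did not pass the threshold.

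Genes of the same pathways outside the list were described by counts, shares and medians. Of 29 other collagen chains none was called in either knockdown against si-Control. In the direct comparison of the knockdowns COL9A2 and COL4A4, at -0.90 and -0.72, were called lower. These were 6.9% of the chains, near the 5.07% of all genes called lower there. Of 25 other genes of collagen modification, folding and processing none was called against si-Control. Between the knockdowns 4 were higher in GATA3 knockdown and 1 lower, together 20% of the list, beside 6.92% and 5.07% of all genes. The largest were SEC24D, a coat protein of procollagen export, at 1.27, and P3H2, a prolyl 3-hydroxylase, at 1.00. Next was PCOLCE2, an enhancer of procollagen cleavage, at 0.79. Over the other chains the median after GATA3 knockdown was -0.21 (log2 fold change), and 21 of 29 were below 0, while after HIF-1α knockdown it was 0.02. For the other processing genes the medians were 0.09 and -0.04.

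Of 43 other matrix glycoproteins and proteoglycans, EFEMP2 alone was called in HIF-1α knockdown, and it was lower. This was 2.33% of that list, beside 3.28% of all genes called lower and 1.98% called higher. EFEMP2, a fibulin needed for elastic fibres, was at 11.53, 12.39 and 13.53 in si-Control and at 10.71, 10.47 and 11.07 in HIF-1α knockdown, a log2 fold change of -1.73 ± 0.45 (SE, n = 3; limma adjusted P = 0.715) that was called without each array in turn. In GATA3 knockdown ECM2 was called higher at 1.08, and MATN3 and MFAP2 lower at -0.65 and -0.57. Together they were 6.98% of the list, beside 1.57% of all genes called higher and 1.37% lower. Between the knockdowns 2 were called higher in GATA3 knockdown and 3 lower, beside 6.92% and 5.07% of all genes. The largest were EFEMP2 at 2.29, SPP1 at -1.07 and ECM2 at 1.04.

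FAP, a fibroblast marker, was called higher at 0.86 after GATA3 knockdown and lower at -0.66 after HIF-1α knockdown, and S100A4 was lower in GATA3 knockdown at -0.80. In GATA3 knockdown these were 20% of the 10 fibroblast markers, beside 1.57% of all genes called higher and 1.37% lower. In HIF-1α knockdown FAP alone was 10%, beside 3.28% of all genes called lower. The summed level of the 10 fibroblast markers spanned 18.33 to 18.74 in si-Control, 18.55 to 18.93 with GATA3 knocked down and 18.34 to 18.71 with HIF-1α knocked down (log2 intensity). All 13 epithelial markers had a negative log2 fold change in GATA3 knockdown, with a median of -0.30. KRT19 alone was called lower, at -0.70, which is 7.69% of these markers, beside 1.37% of all genes. In HIF-1α knockdown none was called and the median was 0.05. Between the knockdowns KRT6A, KRT18, KRT19 and KRT8 were called lower in GATA3 knockdown, and the median was -0.52. They were 30.8% of the epithelial markers, beside 5.07% of all genes called lower there. The summed level of the epithelial markers spanned 19.82 to 20.44 in si-Control, 19.29 to 20.02 with GATA3 knocked down and 19.89 to 20.41 with HIF-1α knocked down. Both summed levels add linear intensities, so the brightest genes weighed most, such as VIM and PDGFRB among the fibroblast markers. The part of both marker lists in the results above was not tested.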

How the data were processed

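RNA of 9 samples, 3 per group, was measured on Agilent arrays with 1 dye. The authors deposited 1 file per array from Agilent Feature Extraction 10.5.1.1, whose spot, local background and processed values are intensity on a linear scale, not normalized between arrays. A second deposited table holds log2 values. On each array at least 99.5% of them differed from the log2 of the processed intensity by the same constant, to 0.001. Whether that constant was the 75th percentile was not tested.

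Here the median spot intensity was background corrected (normexp, offset 50), non-uniform spots were set to missing, arrays were quantile normalized and log2 transformed, and the brightest probe stood for a gene (R 4.3.3, limma 3.58.1). Of 58201 probes, 31104 were matched to RefSeq symbols. The 3 groups were fitted together with lmFit and eBayes, two-sided, a gene was called at an unadjusted P of 0.05 or less, and adjusted P values (Benjamini-Hochberg) run over all genes tested. The fit was tested on simulated data. Members and gene lists were chosen with earlier results of these data known. Values on each array are given for called members and for main collagens, hydroxylases and glycoproteins. Same-numbered arrays share a slide in the file headers, and their deviations from the group means correlated between -0.19 and 0.72. For arrays of different groups and numbers the range was -0.69 to 0.47. The alternatives were other background corrections, scaling and probe summaries, a filter on dim probes, the replicate block, array brightness as a covariate, separate fits and each array left out. Precision is limited by the 3 arrays per group.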

Additional observations from a re-analysis of the deposited data

Results flagged for a closer look

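GATA3 knockdown and HIF-1α knockdown differed from each other in 8 members, by the direct limma contrast at an unadjusted P of 0.05. Both effects are set against the same si-Control arrays, which drop out of the difference but not of the spread it is tested against. Without si-Control replicate 3 the contrast called 10 members, against 8, and 9453 of all genes, against 5677. The log2 difference, GATA3 knockdown minus HIF-1α knockdown, was 2.35 for P4HA2, 2.12 for LOX, 1.85 for P4HA1, 1.35 for COL12A1, 1.22 for POSTN, 0.92 for COL8A1, 0.77 for SERPINH1 and -1.45 for DCN. The cause was not tested.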

How the results depend on the processing

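The called members kept their direction in each of the 19 alternatives. In GATA3 knockdown the number of called members, 2 in the report, was 1 with the authors' log2 table, with the mean of a gene's probes and with separate fits of 6 arrays, 4 with non-uniform spots kept, 5 with the replicate block and 8 with array brightness as a covariate. Leaving out 1 array at a time it ran from 0 (without si-Control replicate 2) to 7 (without si-Control replicate 3), where calls over all genes were 950 and 5945, against 1404. In HIF-1α knockdown the number, 5 in the report, was 8 with the replicate block and ran from 3 (without HIF-1α knockdown replicate 1) to 10 (without si-Control replicate 1) when 1 array was left out, with 1411 and 4803 calls over all genes, against 2490. Between the knockdowns it was 11 with the replicate block, against 8, where calls over all genes were 8859, against 5677. When 1 array was left out it ran from 7 (without GATA3 knockdown replicate 3) to 12 (without GATA3 knockdown replicate 2), with 2687 and 9734 calls over all genes. At an adjusted P of 0.05 it was 0 in each comparison, and with the replicate block the lowest adjusted P over the members was 0.958 in GATA3 knockdown, 0.0958 in HIF-1α knockdown and 0.0501 between them. The slide is known from the file headers, so the replicate block is also a slide block. Scaling mattered to the background: with the processed signal at the 75th percentile 2.38% of all genes were called lower in HIF-1α knockdown and 2.86% higher, and in GATA3 knockdown 5% were called higher and 1.46% lower. Of the single members, 132 values that were not called changed sign under an alternative, and no call did. The cause of these shifts was not tested. Signal over background limits COL3A1, LUM, LOXL4 and DCN.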
